A study of Mus musculus with 18 samples.

Results

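The genes described are 3 FGF signals (Fgf4, Fgf8 and Fgf15) and 7 genes whose products act or are switched on downstream of FGF receptors: the Sprouty inhibitors Spry1, Spry2 and Spry4, the phosphatase gene Dusp6 and the ETS transcription factor genes Etv1, Etv4 and Etv5. They were chosen by symbol. Every probe set annotated to one of the 10 symbols was taken, which gave 22 of the 45101 probe sets on the array. For 9 of the 10 genes a probe set with that symbol alone passed the filter on low values, and these 9 were among the 14433 genes tested. The exception was Etv1: each of its 3 probe sets is annotated to the pseudogene Gm5454 as well, so its values are given apart.

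Fibroblast growth factors bind receptor tyrosine kinases at the cell surface and, through Ras, Raf and MEK, activate the kinase ERK. Active ERK switches on genes that damp the same pathway, among them the Sprouty genes and Dusp6, and the ETS factors of the PEA3 family, so these genes are widely read as a record of FGF and ERK activity. In embryonic stem (ES) cells Fgf4 is the main FGF made by the cells themselves, and the ERK signal it gives primes them to leave self-renewal. In the early brain Fgf8 comes from the anterior neural ridge and from the isthmus between midbrain and hindbrain, and Fgf15 is made by dividing neural progenitors.

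RNA was measured on 18 Affymetrix arrays of mouse cells of strain C57/B6, with 3 arrays in each of 6 groups. Each of 3 cell types (ES cells, neural progenitors and neurons) was taken with Hmgn1 intact (+/+) or with both of its alleles inactivated (-/-), and Hmgn1 encodes a nucleosome-binding chromatin protein. ES cells were kept in LIF and serum replacement, on mitomycin-treated fibroblast feeders or without feeders, and the labels do not say which applied to which arrays. A purchased kit for dopaminergic differentiation turned the ES cells of both genotypes into the neural cells. Within a group the 3 arrays are labelled as biological replicates. Whether these were separate cultures, and how many ES cell lines there were per genotype, is not stated, so p-values measure only the spread between these arrays. Whatever else distinguishes the lines and the loss of Hmgn1 cannot be told apart. In such bulk samples fewer cells of a type and less RNA per cell cannot be told apart either.

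A level below is an intensity, the brightness of a probe set on a linear scale, and it is compared only with the same probe set on other arrays. A difference is a log2 difference, on the scale log2(intensity + 1), with its standard error (SE) from limma fitted over all 18 arrays, and n is 3 arrays per group throughout. A gene was called at a Benjamini-Hochberg adjusted p under 0.05 over all 14433 genes tested in that comparison, and adjusted p-values are from limma. The 40th percentile of each array, an intensity of 36.5 to 38.6, served as the bound under which a level counts as background. Array medians lay between 55.7 and 60.5, and the correlation across genes within a group was r 0.995 to 0.998. Hmgn1 itself was lower on every -/- array on each of its 3 probe sets above background, but not absent: the log2 difference lay between -0.31 and -0.56, and the sources used here do not say where these probes lie relative to the inactivated part. Of 10 ES cell markers all 10 were above background on every ES array, with a summed intensity of 50882 to 55117, against 6164 to 7790 in progenitors. The summed intensity of 10 neuronal markers was 33678 to 39998 in neurons and 7925 to 8339 in progenitors. Astroglial markers, 7 in all, rose too in +/+ cells, from sums of 8645 to 9016 in progenitors to 12495 to 13408 in neurons. Slc1a2 rose by 3.98 and Gfap by 2.99 on the log2 scale, while Gja1 went the other way (-0.42). The neuron arrays thus also carry astroglial signal, and its part in the stage differences below was not tested. The 10 progenitor markers summed to 35093 to 41485 in neurons and 37136 to 40791 in progenitors, with 4 of them lower in neurons in both genotypes (Nes, Pax6, Msi1 and Vim) and 3 higher (Hes5, Sox2 and Prom1). Nes, the neural stem cell intermediate filament gene, fell by 2.19 on the log2 scale in +/+ and by 2.92 in -/- cells (adjusted p 1.37e-12 and 3.46e-14).

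Promoter sequence was at hand for 6 of the 10 genes (RefSeq, build GRCm38.p6), and 3 of these are shown because their genes follow different courses below: Dusp6 and Spry1 were highest in progenitors, Fgf4 in ES cells. The window is the 250 bases before the annotated start. Capitals mark the core of ETS sites, GGAA on either strand (TTCC on the strand shown). All 3 lie on the plus strand, Dusp6 at chr10:99262981-99263230, Spry1 at chr3:37639697-37639946 and Fgf4 at chr7:144861136-144861385.
Dusp6: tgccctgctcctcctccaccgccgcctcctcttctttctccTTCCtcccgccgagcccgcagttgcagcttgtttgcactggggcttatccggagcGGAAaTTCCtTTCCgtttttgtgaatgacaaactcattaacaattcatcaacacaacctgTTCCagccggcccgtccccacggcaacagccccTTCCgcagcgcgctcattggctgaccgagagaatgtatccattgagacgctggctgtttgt
Spry1: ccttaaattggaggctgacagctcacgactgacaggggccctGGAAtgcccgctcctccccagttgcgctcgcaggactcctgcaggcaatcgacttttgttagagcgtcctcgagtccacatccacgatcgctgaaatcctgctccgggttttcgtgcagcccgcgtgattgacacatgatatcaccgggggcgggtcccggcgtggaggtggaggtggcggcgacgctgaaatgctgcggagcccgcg
Fgf4: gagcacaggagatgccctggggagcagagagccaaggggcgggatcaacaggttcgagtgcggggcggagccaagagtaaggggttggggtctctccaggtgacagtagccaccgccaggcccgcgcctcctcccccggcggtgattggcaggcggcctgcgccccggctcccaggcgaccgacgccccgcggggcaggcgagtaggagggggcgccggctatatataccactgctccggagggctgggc

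The Dusp6 window held 6 matches to the core, the Spry1 window 1 and the Fgf4 window 0. The core is short and common: of 32851 promoters of the same length 93.4% held at least 1 match, 8.69% held at least 6 and 6.55% held none, with a median of 3. The Spry2 window held 3 matches, the 2 Etv5 windows 4 and 0, and the 2 Etv1 windows 2 and 1. Longer motifs, searched on both strands, were in none of the 8 windows of these genes: the ETS motif CCGGAAGT (which contains the core; in 2.88% of all promoters), the TCF/LEF motif CTTTGAT (in 3.21%) and the cyclic AMP element TGACGTCA (in 1.55%). No match says only that these letters are not in this window.

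All 9 tested genes changed at both steps of differentiation in both genotypes, and 5 of the 9 were called between the genotypes in at least 1 cell type. Of all genes, 10.5%, 7.81% and 5.94% were higher in -/- ES cells, progenitors and neurons, and 4.32%, 9.19% and 7.27% lower. The share of all genes called in at least 1 cell type was not counted. From ES cells to progenitors 4 genes rose (Fgf8, Fgf15, Spry1 and Dusp6) and 5 fell (Fgf4, Spry2, Spry4, Etv4 and Etv5). The direction of each was the same in +/+ and -/- cells. In +/+ cells 41.3% of all genes tested rose and 37.2% fell at this step, and in -/- cells 39.8% rose and 38% fell, so a call at this step is common. From progenitors to neurons all 9 fell and 0 rose (also 0 at an unadjusted p under 0.05) in both genotypes, against 44.4% of all genes in +/+ cells (34.6% rose) and 45.6% in -/- cells (35.2% rose). The median of the 9 differences at this step was -1.75 in +/+ and -2.06 in -/- cells, while the median over all genes tested was -0.11 and -0.13. The steps share the progenitor arrays, so the values of one step are not independent of those of the other.

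**Figure D1:**
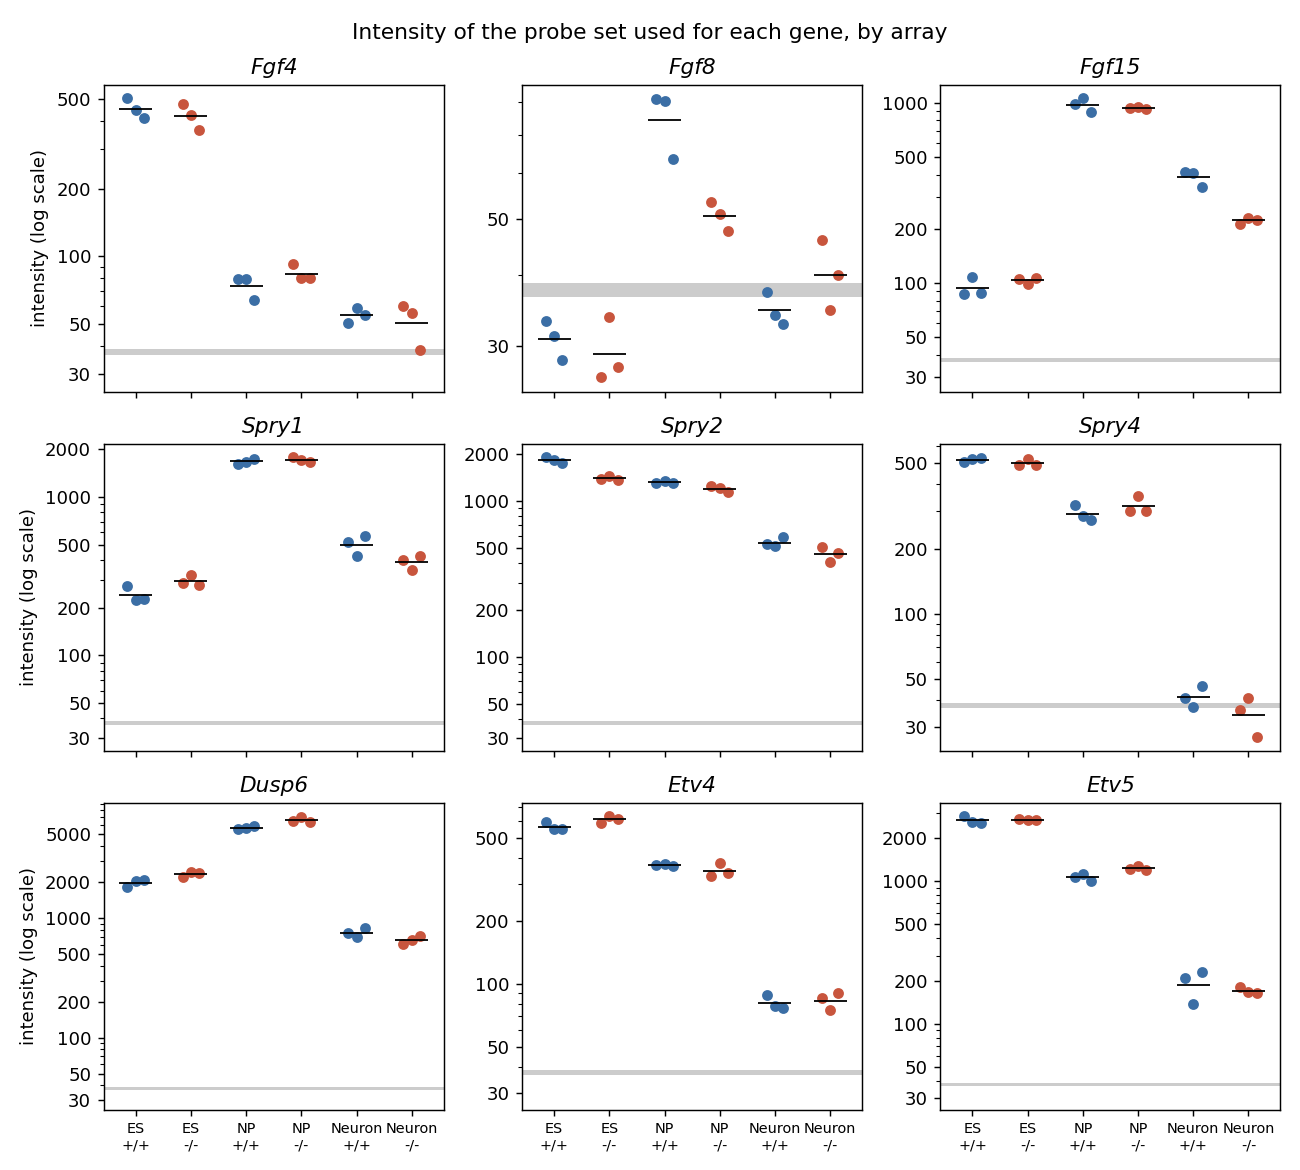
Intensity (log axis) of the probe set used for each of the 9 tested genes, 1 point per array, in the 6 groups (ES, embryonic stem cells; NP, neural progenitors; blue, Hmgn1 +/+; red, Hmgn1 -/-). Black bars are means on the log scale and the grey band is the background bound, 36.5 to 38.6; Dusp6, Spry1 and Fgf15 peak in progenitors, and Fgf8 is under the band in ES cells.

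Fgf4, the autocrine ligand of ES cells, was highest in ES cells and fell at both steps. Its probe set read 506.1, 448.2 and 410.7 on the +/+ ES arrays and 476.5, 426.4 and 365.5 on the -/- ES arrays. Progenitors read 79, 79.3 and 63.9 (+/+) and 92.1, 79.7 and 80.2 (-/-). Neurons read 50.6, 59 and 54.6 (+/+) and 59.8, 55.9 and 38.5 (-/-). No array of one stage overlapped with another stage of the same genotype, and the genotypes overlapped in ES cells and in neurons. The fall from ES cells to progenitors was 6.08-fold in +/+ cells (log2 difference -2.60, SE 0.14, adjusted p 2.95e-11) and 4.97-fold in -/- cells (-2.31, adjusted p 1.36e-10). The further fall to neurons was smaller, -0.43 (adjusted p 0.0124) and -0.72 (adjusted p 2.12e-04). The genotype differences of -0.11, 0.18 and -0.11 (ES cells, progenitors, neurons) did not pass (adjusted p 0.649, 0.463 and 0.693).

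The size of the fall of Fgf4 depends on the probe set. The probe set above, 1450282_at, was taken because its mean log2 value was highest. A second, 1420085_at, read 3548.5, 3556.3 and 3517.9 in +/+ ES cells and 3417, 3441.8 and 3506.3 in -/- ES cells, and was under background on all progenitor arrays (17.9 to 26.3) and all neuron arrays (12.3 to 14.8). On it Fgf4 was at least 93.1-fold lower in +/+ progenitors than in ES cells, and at least 90.6-fold lower in -/- progenitors. These bounds set the dim group at the background bound, or at its own value where that is higher. Another, 1420086_x_at, gave at least 82.7-fold in -/- cells and a log2 difference of -6.63 in +/+ cells. Neither bright probe set differed between the genotypes in ES cells beyond the threshold (differences -0.04 and 0.01, adjusted p 0.862 and 0.981 over all probe sets).

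Fgf8, the patterning signal of the isthmus and the anterior neural ridge, was above background mainly in progenitors, and there it was lower in -/- cells. The ES arrays read 33.2, 31.3 and 28.4 (+/+) and 26.5, 33.8 and 27.6 (-/-), all under the bound. The progenitor arrays read 80.9, 80.1 and 63.5 (+/+) and 53.5, 50.9 and 47.7 (-/-), with no overlap between the genotypes. The neuron arrays read 37.3, 34 and 32.8 (+/+) and 45.9, 34.7 and 39.9 (-/-), of which 1 and 2 reached the bound. Fgf8 was at least 1.92-fold higher in +/+ progenitors than in ES cells, and at least 1.33-fold in -/- cells (adjusted p 2.58e-08 and 8.09e-06). In -/- progenitors it was 1.46-fold lower than in +/+ progenitors (-0.55, SE 0.11, adjusted p 0.00269), and this call held in all 16 alternative settings in which it was tested. The fall to neurons was -1.08 in +/+ cells (adjusted p 1.53e-07) and -0.34 in -/- cells (adjusted p 0.0124). Without the second -/- neuron array the latter was -0.24 and did not pass (adjusted p 0.0777). All of these intensities are close to background, which limits every fold of this gene.

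Fgf15, an FGF signal made by neural progenitors, was highest in progenitors, and in neurons it was lower in -/- cells. It read 86.6, 108.6 and 87.9 in +/+ ES cells and 106.1, 98.8 and 107.1 in -/- ES cells. Progenitors gave 986.9, 1063 and 890.6 (+/+) and 936.3, 946.3 and 921.7 (-/-). Neurons gave 411.5, 410.7 and 343.5 (+/+) and 214.2, 231.3 and 224.7 (-/-). The genotypes overlapped in ES cells and progenitors, while in neurons every -/- array lay under every +/+ array. The rise to progenitors was 10.3-fold in +/+ cells (3.37, SE 0.09, adjusted p 2.52e-15) and 8.92-fold in -/- cells (3.16, adjusted p 5.15e-15). The fall to neurons was 2.52-fold in +/+ cells (-1.33, adjusted p 4.21e-10) and 4.17-fold in -/- cells (-2.06, adjusted p 1.31e-12). The genotype difference was 0.15 in ES cells and -0.06 in progenitors, neither of which passed (adjusted p 0.293 and 0.717), and -0.79 in neurons (SE 0.09, 1.73-fold, adjusted p 1.74e-05). The call in neurons held in all 17 alternative settings, over which the difference ranged from -0.88 to -0.75. Fgf15 and Fgf4 are neighbours on chromosome 7 with 0 protein-coding genes between them, and their courses from ES cells to progenitors ran in opposite directions.

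Spry1, an inhibitor of signalling below receptor tyrosine kinases, was highest in progenitors. It read 273.1, 225.1 and 227.2 in +/+ ES cells and 284.6, 323.5 and 278.1 in -/- ES cells. The progenitor arrays gave 1620.1, 1675.3 and 1740.7 (+/+) and 1780.1, 1706.9 and 1665 (-/-). The neuron arrays gave 517.9, 423.3 and 566.1 (+/+) and 399.1, 344.3 and 422.4 (-/-). The genotypes overlapped only in progenitors; the -/- arrays were all higher in ES cells and all lower in neurons. The rise to progenitors was 6.94-fold in +/+ cells (2.80, SE 0.10, adjusted p 1.77e-13) and 5.81-fold in -/- cells (2.54, adjusted p 5.59e-13), and the fall to neurons was -1.75 and -2.15 (adjusted p 8.82e-11 and 5.49e-12). Spry1 was 1.29-fold lower in -/- neurons (-0.36, SE 0.10, adjusted p 0.0282), while the differences of 0.29 in ES cells and 0.03 in progenitors did not pass (adjusted p 0.0707 and 0.894). A fit to the 6 neuron arrays alone ended the neuronal call (adjusted p 0.101), and so did a fit without the first or the third +/+ array (adjusted p 0.0915 and 0.133) and without the second -/- array (adjusted p 0.141). In ES cells the difference passed without the first +/+ array (0.38, adjusted p 0.0366).

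Spry2, of the same family, was highest in ES cells and lower in -/- cells. It read 1910.6, 1841.9 and 1760.9 in +/+ ES cells and 1393.6, 1460.1 and 1376.6 in -/- ES cells. In progenitors it read 1314.1, 1356.1 and 1316 (+/+) and 1249.2, 1207.5 and 1151.5 (-/-). In neurons it read 527.8, 516.4 and 586.4 (+/+) and 504.4, 407.7 and 466.5 (-/-). In each cell type every -/- array was under every +/+ array. Spry2 was 1.30-fold lower in -/- ES cells (-0.38, SE 0.07, adjusted p 0.00248) and lower in -/- neurons too (-0.24, SE 0.07, adjusted p 0.0300), while -0.14 in progenitors was not called (adjusted p 0.197). The call in ES cells held in all 17 alternative settings. The neuronal call ended with a fit to the 6 neuron arrays alone (adjusted p 0.139), without the first or the third +/+ array (0.0510 and 0.134) and without the second or the third -/- array (0.154 and 0.0548, all adjusted p).

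Spry2 lies on chromosome 14, where many genes were lower in -/- cells. In ES cells 241 of the 493 tested genes of that chromosome fell, with a median difference of -0.22, against a median of 0.05 on the other chromosomes. The median of the chromosome was -0.13 in progenitors and -0.12 in neurons. The part of this in the differences of Spry2 was not tested. Across the stages Spry2 fell from ES cells to progenitors by 0.47 on the log2 scale in +/+ cells (adjusted p 1.22e-05) and by 0.23 in -/- cells (adjusted p 0.00714), then fell to neurons by 1.29 and 1.39 (adjusted p 2.94e-11 and 1.01e-11). The step to progenitors is not seen on the second probe set, 1421656_at, where the differences were -0.00 and -0.06 (adjusted p 0.987 and 0.669 over all probe sets). That probe set read 135.7 to 210.3 in +/+ and 115.7 to 149 in -/- ES cells, and 169.1 to 170.5 in +/+ and 124.2 to 128.4 in -/- progenitors, a genotype difference in progenitors of -0.43 (adjusted p 0.0420 over all probe sets).

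Spry4 had the largest stage range of the Sprouty genes, falling to about background in neurons. It read 507, 522.4 and 529.7 in +/+ ES cells and 490, 521.8 and 488.6 in -/- ES cells. Progenitors read 321.6, 284.6 and 271.6 (+/+) and 299.2, 352.9 and 300.3 (-/-). Neurons read 40.6, 37.1 and 46.3 (+/+) and 35.7, 40.8 and 26.9 (-/-), of which 2 and 1 reached the bound. The genotypes overlapped in every cell type and the stages in none. The fall to progenitors was 1.78-fold in +/+ cells (-0.83, SE 0.12, adjusted p 6.40e-06) and 1.58-fold in -/- cells (-0.66, adjusted p 8.01e-05). The fall to neurons was 6.95-fold (-2.80, adjusted p 1.11e-12) and 9.08-fold (-3.18, adjusted p 1.93e-13), sizes that the background limits. The genotype differences of -0.06, 0.12 and -0.27 in ES cells, progenitors and neurons did not pass (adjusted p 0.792, 0.594 and 0.157). Without the second -/- neuron array that in neurons passed (-0.40, adjusted p 0.0426). Both of its other tested probe sets fell from progenitors to neurons as well, in both genotypes, while 1422021_at did not pass in +/+ cells between ES cells and progenitors (-0.18, adjusted p 0.222 over all probe sets).

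Dusp6, which encodes a phosphatase that inactivates ERK in the cytoplasm, was highest in progenitors and lowest in neurons. It read 1817, 2051.7 and 2072.5 in +/+ ES cells and 2183.1, 2437.1 and 2379.6 in -/- ES cells. Progenitors gave 5536.4, 5680.3 and 5895.4 (+/+) and 6431.5, 7033.1 and 6296.1 (-/-). Neurons gave 754.8, 693.9 and 818.5 (+/+) and 605.8, 660.9 and 702.2 (-/-). In ES cells and progenitors every -/- array was above every +/+ array, and in neurons the genotypes overlapped, with the -/- mean lower. The rise to progenitors was 2.88-fold and 2.82-fold in +/+ and -/- cells (1.53 and 1.50, SE 0.08, adjusted p 8.06e-12 and 9.57e-12). The fall to neurons was 7.55-fold in +/+ cells (-2.92, adjusted p 3.41e-15) and 10.03-fold in -/- cells (-3.33, adjusted p 6.62e-16). Dusp6 was 1.18-fold higher in -/- ES cells (0.24, SE 0.08, adjusted p 0.0468), while 0.21 in progenitors and -0.20 in neurons were not called (adjusted p 0.0775 and 0.0953). The call in ES cells is marginal: it held in 7 of 17 alternative settings, and leaving out any 1 of 5 of the 6 ES arrays ended it (all 3 +/+ arrays and the second and the third -/- array; adjusted p 0.0507 to 0.173). With only the progenitor arrays in the fit the difference in progenitors passed (adjusted p 0.0336).

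Etv4, an ETS factor of the PEA3 family, fell at both steps and did not differ between the genotypes beyond the threshold. It read 593, 551.6 and 553.1 in +/+ ES cells and 589.5, 635.1 and 611.7 in -/- ES cells. The progenitor arrays gave 368.8, 375.8 and 365.1 (+/+) and 326.9, 378.5 and 340.6 (-/-). The neuron arrays gave 88.8, 78.1 and 76.3 (+/+) and 85.5, 74.6 and 90.1 (-/-). The genotypes overlapped in every cell type and the stages in none. The fall to progenitors was 1.53-fold in +/+ cells (-0.61, SE 0.08, adjusted p 1.12e-06) and 1.76-fold in -/- cells (-0.81, adjusted p 2.97e-08), and the fall to neurons was 4.53-fold and 4.15-fold (-2.18 and -2.05, adjusted p 8.77e-14 and 1.61e-13). The genotype differences were 0.11, -0.09 and 0.04, with 95% intervals of -0.05 to 0.27 in ES cells, -0.25 to 0.07 in progenitors and -0.12 to 0.20 in neurons.

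Etv5, the other PEA3-family gene tested, followed the same course. It read 2851.6, 2608.3 and 2582.7 in +/+ ES cells and 2737.1, 2691.5 and 2674.6 in -/- ES cells. In progenitors it read 1070.4, 1135.5 and 1001.3 (+/+) and 1223.6, 1276.7 and 1203.3 (-/-). In neurons it read 210.7, 137.5 and 232 (+/+) and 180.3, 168.4 and 164 (-/-). The stages did not overlap, the genotypes overlapped in ES cells and neurons, and in progenitors every -/- array was higher. The fall to progenitors was 2.51-fold and 2.19-fold in +/+ and -/- cells (-1.33 and -1.13, SE 0.13, adjusted p 5.55e-08 and 4.12e-07), and that to neurons 5.63-fold and 7.19-fold (-2.49 and -2.85, adjusted p 1.36e-11 and 2.23e-12). The genotype differences of 0.01, 0.21 and -0.14 did not pass (adjusted p 0.962, 0.327 and 0.533). The second +/+ neuron array stood apart at 137.5, and without it the difference in neurons was -0.37 and passed (adjusted p 0.00213). On the 2 other probe sets of Etv5, the first of them under background in neurons of both genotypes, the difference in neurons lay above 0 (0.13 and 0.24) and did not pass (adjusted p 0.552 and 0.412 over all probe sets).

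For Etv1 only the signal shared with Gm5454, a pseudogene on chromosome 13, can be given (Etv1 lies on chromosome 12), and how much of it is Etv1 cannot be told apart. Probe set 1450684_at read 209.1, 198.7 and 216.2 in +/+ ES cells and 288.3, 355.3 and 298.5 in -/- ES cells, with no overlap. Progenitors read 205.8 to 238.7 (+/+) and 218 to 245.8 (-/-), and in neurons 92.6 to 105.3 and 101.7 to 104.8. The difference in ES cells was 0.59 (SE 0.08, adjusted p 4.79e-04 over all probe sets with a symbol), larger than the 0.09 in progenitors and 0.07 in neurons, which did not pass (adjusted p 0.596 and 0.663). Probe set 1422607_at read 425.9 to 488.3 in +/+ and 456.1 to 616.7 in -/- ES cells, where its difference of 0.24 did not pass (adjusted p 0.109). The remaining probe set was at background on every array.

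**Figure D2:**
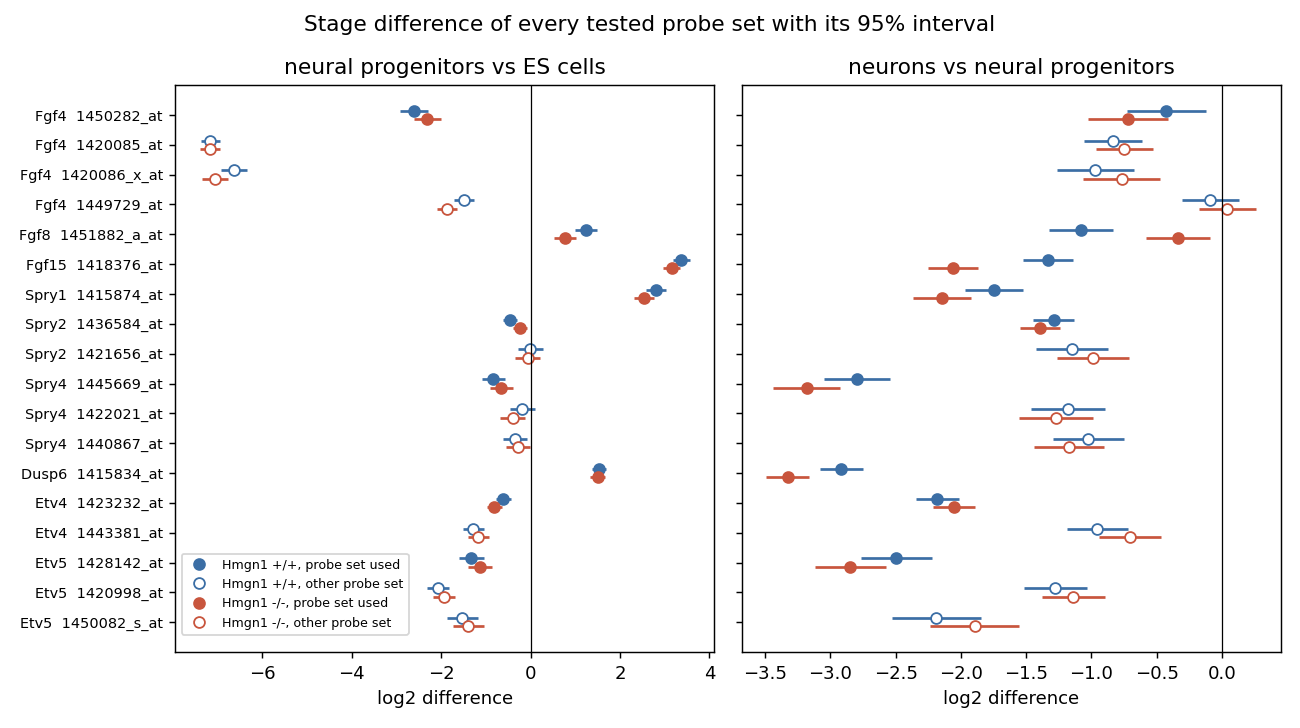
Log2 difference between stages for every tested probe set of the 9 genes, with its 95% interval, in +/+ (blue) and -/- (red) cells; filled points are the probe sets used and open points the others. All filled points of the right panel lie below 0, and the 4 probe sets of Fgf4 range from -1.49 to -7.16 in +/+ cells in the left panel.

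The question of the genotype comparisons was which genes differ when Hmgn1 is lost. In ES cells 1 of the 9 genes was higher (Dusp6) and 1 lower (Spry2) in -/- cells, where 10.5% of all genes tested were higher and 4.32% lower. Quantile normalization moved that split of all genes from 1520 higher and 624 lower to 910 and 769. In progenitors 0 were higher and 1 lower (Fgf8), against 7.81% higher and 9.19% lower. In neurons 0 were higher and 3 lower (Fgf15, Spry1 and Spry2), against 5.94% higher and 7.27% lower. At an unadjusted p under 0.05, 1 gene was higher in progenitors and 0 in neurons. The median of the 9 differences was 0.01, 0.03 and -0.20 in ES cells, progenitors and neurons, and over all genes 0.04, 0.00 and -0.02. In neurons 7 of the 9 differences lay below 0, and the other two, Fgf8 and Etv4, did not pass (adjusted p 0.288 and 0.805). Fitted to the 6 neuron arrays alone, Fgf15 alone was called, and without the second +/+ neuron array 5 genes were. The calls over all genes under these settings are not given here, so the counts are not a result particular to the 9 genes.

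**Figure D3:**
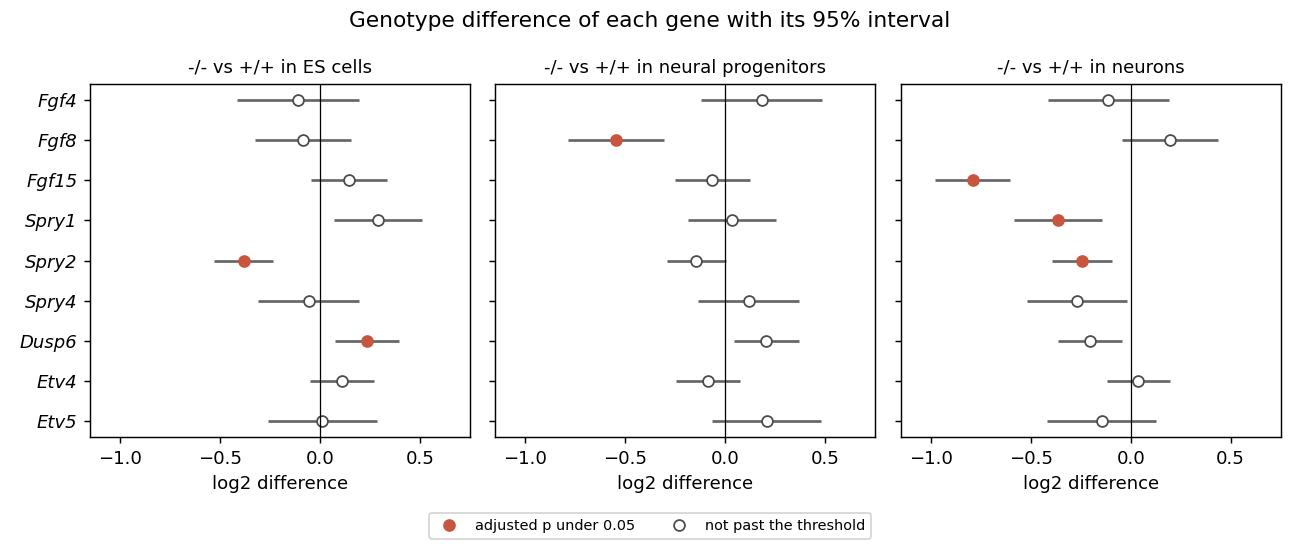
Log2 difference, -/- minus +/+, of the 9 tested genes in each cell type, with the 95% interval of the fit; red points passed an adjusted p of 0.05. The 6 red points are Spry2 and Dusp6 in ES cells, Fgf8 in progenitors, and Fgf15, Spry1 and Spry2 in neurons, where Fgf15 lies lowest at -0.79.

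Marker genes of other cell types moved with the genotype in the same arrays, and their part in these differences was not tested. In neurons, 12 fibroblast and mesenchyme markers, all above background on every array, summed to 30230 to 35111 in -/- and 18962 to 22389 in +/+ cells, and 7 of the 12 were higher. The 10 neuronal markers, also all above background, summed to 33678 to 35232 in -/- and 35378 to 39998 in +/+ neurons. Of these 10, 3 were lower: Nefm (-0.74), Nefl (-0.58) and Dcx (-0.29). Nefm and Nefl lie on chromosome 14, where many genes were lower in -/- cells, and the part of this was not tested. Of 9 measured dopaminergic markers 5 were higher, with sums of 3643 to 3679 against 2018 to 2148. En1 and Slc6a3 were among the 5, with En1 under background on all 6 arrays and Slc6a3 on the +/+ arrays (27.6 to 28.9). Pitx3, which was not called, was under background on the +/+ arrays as well. In progenitors the 12 mesenchyme markers summed to 24342 to 24554 in -/- and 14017 to 14793 in +/+ cells, and 10 were higher. There 12 endoderm markers summed to 4337 to 4604 in -/- and 9170 to 9257 in +/+ cells, and 8 were lower. Both lists were above background on every progenitor array. Of the oligodendrocyte lineage, Olig1 read 561.8 to 629.8 in +/+ and 15.9 to 21.2 in -/- ES cells. Olig2 read 235.5 to 317.8 and 10.1 to 12.5, and the other tested markers of that list were not called there. In -/- progenitors Pdgfra (-1.43), Olig1 (-0.53) and Olig2 (-0.33) were lower and the others not called. In ES cells 5 of 7 markers of the primed epiblast were higher in -/- cells, with sums of 11253 to 12284 against 8745 to 9281 and Fgf5, 1 of the 7, under background in +/+ cells, and the 10 ES cell markers summed to 50882 to 51763 against 52367 to 55117.

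Whether the genotype difference itself changed between stages was tested as an interaction, the difference in the later stage minus that in the earlier. Between ES cells and progenitors none of the 9 passed, against 5.71% of all genes with a larger and 10.6% with a smaller value. At an unadjusted p under 0.05 there were 2, Fgf8 and Spry2. The nearest was Fgf8 (-0.46, SE 0.16, adjusted p 0.0598), which passed in 5 of 22 alternative settings. Between progenitors and neurons 1 was called upward and 2 downward, against 5.67% and 5.41% of all genes. Fgf8 was lower in -/- progenitors but not in -/- neurons (0.74, SE 0.16, adjusted p 0.00657), with most neuron values at background. Fgf15 was lower in -/- neurons but not in -/- progenitors (-0.73, SE 0.13, adjusted p 0.00137). Dusp6 turned from a higher to a lower -/- mean (-0.41, SE 0.11, adjusted p 0.0213), which was lost without the first -/- or the third +/+ neuron array, or without the second -/- or the first +/+ progenitor array (adjusted p 0.0525 to 0.0624). Without the second +/+ neuron array 5 genes passed, Spry1 and Etv5 besides these (-0.52 and -0.58, adjusted p 0.0210 and 8.48e-04). The share of all genes that passed without that array is not given here.

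Between ES cells and neurons 0 interactions were called upward and 3 downward, against 4.7% and 11% of all genes. At an unadjusted p under 0.05 the count upward was also 0. Quantile normalization moved the split of all genes from 679 upward and 1581 downward to 796 and 1041. The 3 genes were called in all 23 alternative settings. The genes were Fgf15 (-0.94, SE 0.13, adjusted p 1.75e-04), Spry1 (-0.65, SE 0.15, adjusted p 0.00763) and Dusp6 (-0.44, SE 0.11, adjusted p 0.0125). In each the -/- mean was above the +/+ mean in ES cells and under it in neurons. Spry2 and Etv4 had interactions of 0.14 and -0.07 (95% intervals -0.07 to 0.35 and -0.30 to 0.15). The shared Etv1 and Gm5454 probe set 1450684_at, higher in -/- cells only among the ES groups, had interactions of -0.50 against progenitors (adjusted p 0.0100) and -0.51 against neurons (adjusted p 0.0111). The interactions share arrays with each other and with the comparisons above.

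Set against ES cells directly, neurons had 2 genes higher (Fgf15 and Spry1) and 6 lower in +/+ cells, and 3 higher and 6 lower in -/- cells. For all genes these shares were 43.4% and 45.2% in +/+ cells and 42.5% and 45.9% in -/- cells. By level of the probe set used, 8 of the 9 genes fall into 3 orders. Fgf15 and Spry1 went progenitors, neurons, ES cells from high to low, with no neighbours in that order overlapping in either genotype. Dusp6 went progenitors, ES cells, neurons, and Fgf4, Spry2, Spry4, Etv4 and Etv5 went ES cells, progenitors, neurons, again with no neighbours overlapping. On probe sets 1421656_at of Spry2 and 1422021_at of Spry4, ES cells and progenitors overlapped in both genotypes. For Fgf8 only progenitors stood out; +/+ neurons and ES cells overlapped and did not differ beyond the threshold (0.16, adjusted p 0.191), and in -/- cells neurons were at least 1.06-fold above ES cells (adjusted p 0.00166). Etv5 was 14.1-fold lower in neurons than in ES cells in +/+ cells (-3.82) and 15.7-fold lower in -/- cells (-3.98).

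Most other genes of the FGF family, not all of which encode secreted ligands, were close to background in 1 stage or more. Of 19 such genes 14 were tested. From ES cells to progenitors in +/+ cells 7 rose and 2 fell (all genes: 41.3% and 37.2%), led by Fgf18, which went from under background to 410.8 to 474.3, at least 11.2-fold (adjusted p 2.54e-15). From progenitors to neurons 5 rose and 6 fell (all genes: 34.6% and 44.4%). Fgf12, which encodes an intracellular FGF-related protein of neurons, was at least 5.76-fold higher in neurons, and Fgf18 fell by 3.24 on the log2 scale, to 42.4 to 47.4. Between genotypes 2 were higher and 2 lower in -/- ES cells (all genes: 10.5% and 4.32%), 2 were higher and 3 lower in progenitors (all genes: 7.81% and 9.19%), and 1 was higher in neurons (all genes: 5.94%). Fgf5, a ligand of the primed epiblast, read 24 to 31.2 in +/+ and 39.1 to 51.7 in -/- ES cells, at least 1.19-fold higher (adjusted p 6.02e-04), and was lower in -/- progenitors (-0.57, adjusted p 0.00118). Its interaction between these stages was -1.29 (adjusted p 2.49e-05). Fgf17, lower in -/- ES cells (-0.57), and Fgf14, lower in -/- progenitors (-0.72), lie on chromosome 14. Many genes of that chromosome were lower in -/- cells, and the part of this was not tested.

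Of 18 tested FGF receptor and co-receptor genes 16 rose and 0 fell (also 0 at an unadjusted p under 0.05) in +/+ progenitors against ES cells, with a median of 1.24, and 15 rose and 2 fell in -/- cells. At this step 41.3% of all genes rose and 37.2% fell in +/+ cells, and 39.8% and 38% in -/- cells. Fgfr1, the main receptor of ES cells and progenitors, rose by 1.20 (adjusted p 6.06e-11) and Fgfr2 by 0.95 (adjusted p 4.70e-09), while Fgfr3 had a difference of -0.14 that did not pass (adjusted p 0.0882). From progenitors to neurons 7 rose and 8 fell in +/+ cells (all genes: 34.6% and 44.4%), among them Fgfr1 by -0.51 and Fgfr4 by -1.58 (adjusted p 3.84e-06 and 2.27e-10). In -/- progenitors 7 were higher and 3 lower (all genes: 7.81% and 9.19%). The 2 largest falls were Klb, the co-receptor of the endocrine FGFs (428.8 to 448 in +/+, 129.3 to 139.9 in -/-; -1.69, adjusted p 1.22e-08), and Fgfr4, its partner receptor in liver (111.1 to 147.2 and 47 to 54.5; -1.32, adjusted p 1.13e-07). The endoderm marker sums given above moved the same way in these arrays, and their part in this was not tested. In -/- neurons 4 were higher and 2 lower (all genes: 5.94% and 7.27%), among them Fgfr3 (0.52, adjusted p 9.69e-05), Gpc3 (1.06, adjusted p 1.09e-08) and Klb (-0.65, adjusted p 4.55e-04). Of the 12 endoderm markers 6 were lower and 0 higher in -/- neurons (also 0 at an unadjusted p under 0.05), led by Sox17 (-1.26) and Gata6 (-0.94), with overlapping sums of 4853 to 5642 in -/- and 5466 to 8449 in +/+ cells and with Afp under background in +/+ cells. Their part in the difference of Klb was not tested. In ES cells 4 were higher and 1 lower (all genes: 10.5% and 4.32%), with Fgfr2 at 0.39 (adjusted p 0.00325).

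Of 18 tested kinases, adaptors and other genes of the ERK cascade, 1 rose in -/- ES cells (Braf, 0.27, adjusted p 0.0238), 2 in progenitors (Elk3, 0.72, and Gab1, 0.28) and 2 in neurons (Gab1, 0.26, and Map2k1, 0.21), where 10.5%, 7.81% and 5.94% of all genes were higher. None passed downward, against 4.32%, 9.19% and 7.27% of all genes. At an unadjusted p under 0.05, 2 were lower in ES cells, 2 in neurons and 0 in progenitors. By stage in +/+ cells 10 rose and 4 fell to progenitors (all genes: 41.3% and 37.2%), and 8 rose and 7 fell to neurons (all genes: 34.6% and 44.4%). Gab1, an adaptor of receptor tyrosine kinases, fell to progenitors by 1.59 on the log2 scale, and Araf, a Raf kinase, rose to neurons by 1.59 (adjusted p 1.61e-13 and 4.45e-12).

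The other feedback inhibitors of the pathway, 16 genes all tested, divided in -/- neurons into 1 higher and 5 lower, against 5.94% and 7.27% of all genes. The largest falls there were in Dusp9, Dusp1 and Dusp4, which encode phosphatases of ERK and related kinases. Dusp9 read 59.9 to 73.5 in +/+ and 29.5 to 37.2, all under background, in -/- neurons, at least 1.77-fold lower (adjusted p 6.20e-07). Dusp1 differed by -0.48 (adjusted p 4.95e-05). Dusp4 read 1789.6 to 1949.1 and 1301 to 1378.7, a difference of -0.47 (adjusted p 9.85e-04). Il17rd (Sef), a membrane inhibitor of FGF receptors on chromosome 14, differed by -0.25 (adjusted p 0.0402), and Spred1, a Sprouty relative, by 0.20 (adjusted p 0.0223). The median over the 16 was -0.13 in neurons, 0.10 in ES cells and 0.12 in progenitors. In progenitors 3 were higher and 2 lower (Dusp9, -0.81, and Spry3), against 7.81% and 9.19% of all genes. Spry3 read 43.7 to 49.5 in +/+ and 32.3 to 33.1, all under background, in -/- progenitors. In ES cells 3 were higher and 1 lower (all genes: 10.5% and 4.32%), with Dusp4 at 0.37 (adjusted p 0.00750) and Il17rd at -0.27 (adjusted p 0.0311). The interaction of Dusp4 between progenitors and neurons was -0.56 (adjusted p 0.00546). By stage in +/+ cells 9 rose and 4 fell to progenitors, where 41.3% of all genes rose and 37.2% fell, and 4 rose and 8 fell to neurons, where 34.6% rose and 44.4% fell. Il17rd followed the course of Dusp6 (1.72, then -2.35), whereas Dusp4 rose at both steps (2.79, then 0.91).

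**Figure D4:**
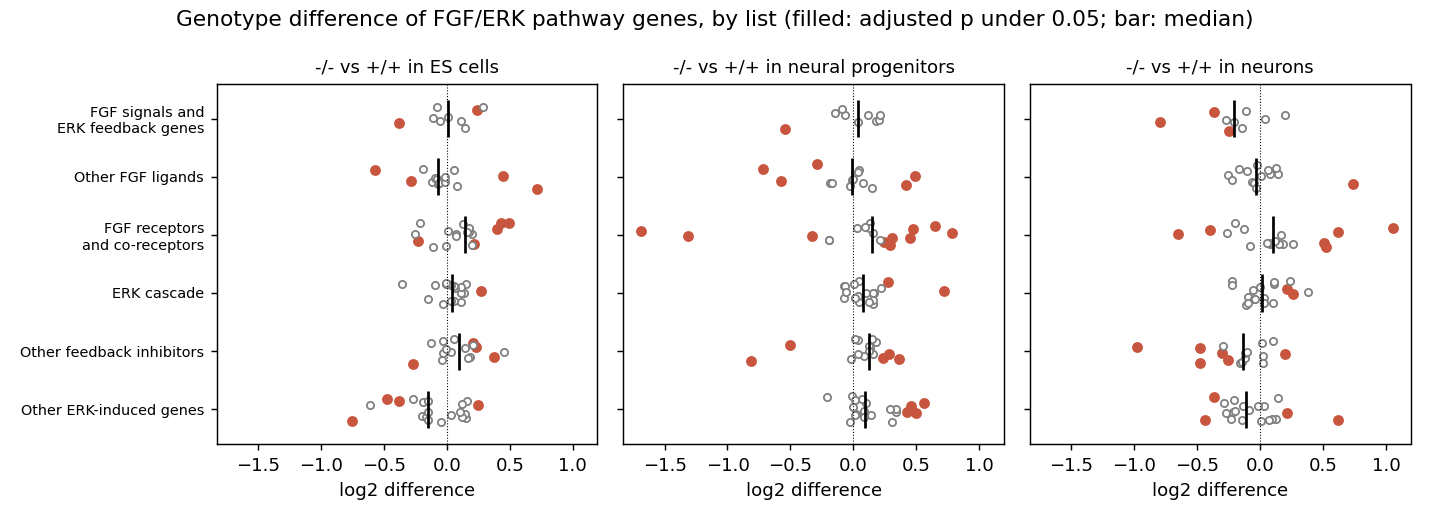
Log2 difference, -/- minus +/+, of the 9 genes and of 5 lists of other FGF and ERK pathway genes in each cell type, 1 point per gene (red, adjusted p under 0.05; open, not past it; bar, median). In neurons 5 of the 16 other feedback inhibitors are red below 0, and the lowest point is Dusp9 at -0.98.

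Of 20 tested other genes known to be induced by ERK, 15 fell and 5 rose from progenitors to neurons in each genotype, with medians of -0.94 and -1.27. Of all genes 44.4% fell and 34.6% rose at this step in +/+ cells, and 45.6% and 35.2% in -/- cells, with medians of -0.11 and -0.13. Among them were the immediate early gene Ier2 (-2.17), the cyclin gene Ccnd1 (-2.09) and the receptor gene Epha2 (-1.70). To progenitors 11 rose and 8 fell in +/+ cells (all genes: 41.3% and 37.2%). Between genotypes 1 was higher and 3 lower in -/- ES cells (all genes: 10.5% and 4.32%), 4 were higher and 0 lower in progenitors (1 lower at an unadjusted p under 0.05; all genes: 7.81% and 9.19%), and 2 were higher and 2 lower in neurons (all genes: 5.94% and 7.27%). Hbegf, an EGF-family growth factor gene, was lower in -/- ES cells (-0.47, adjusted p 0.0107), higher in -/- progenitors (0.50, adjusted p 0.00476) and lower in -/- neurons (-0.37, adjusted p 0.0380).

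Genes of the regions where Fgf8 is made did not move as one group. Of 10 tested genes of the isthmus and the midbrain-hindbrain boundary 5 were higher and 1 lower in -/- progenitors, where Fgf8 was lower and where 7.81% of all genes were higher and 9.19% lower. Lmx1b was higher by 0.98 (adjusted p 5.36e-06) and En1 was at least 1.40-fold higher (adjusted p 1.91e-05). Wnt1 was called higher too (adjusted p 2.49e-04), but close to background. It read 25.3 to 31.6 in +/+ progenitors, all under the bound, and 38.1 to 43.6 in -/- progenitors. Of 11 tested genes of the Fgf8 domain of the anterior forebrain 0 were higher (also 0 at an unadjusted p under 0.05) and 3 lower: Dlx2 (-0.45, adjusted p 0.0250), Dlx5 (-0.44, adjusted p 0.0305) and Sp8 (-0.41, adjusted p 1.48e-04), the last of which is on both lists. Sp8, a zinc finger factor of both regions, was lower again in -/- neurons (239.1 to 268.2 against 495.3 to 540; -1.01, adjusted p 1.74e-08).

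The genes whose course over the 18 arrays was nearest to each of the 9 were found by the root mean square (RMS) distance between log2 values after centring each gene on its mean. The nearest to Fgf4 were Gfpt2 (RMS 0.12) and Map4k1 (0.20), to Fgf8 Asah1 and Mppe1 (0.15 and 0.17), and to Fgf15 Ociad2 and Nuak2 (0.24 and 0.27). For Spry1 they were Gli3, a transcription factor of the Hedgehog pathway, and the glypican gene Gpc4 (0.14 and 0.15). The nearest to Spry2 were Ecd and Timm23 (0.10 and 0.11), and to Spry4 Trip13 and Gins1, which act in mitosis and in DNA replication (0.14 and 0.16). For Dusp6 they were Tubb6 and Cyyr1 (0.24 and 0.25), for Etv4 Srm and Rpa2 (0.10 and 0.11), and for Etv5 Eif4ebp1 and Rbpms (0.15 and 0.16). No member of the 9 was among the 2 nearest of another.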

How the data were processed

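The values are the authors' deposited intensity per probe set, already normalized with RMA per the submitters' processing notes, which also name limma (versions: not given in the sources used here). Both the 10 genes and the pathway and marker lists were chosen with earlier results of these data known.

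From the deposited intensity values log2(intensity + 1) was taken, which understates the change of dim genes. Probe sets with 1 symbol and at or above the 40th percentile of the array on at least 3 of 18 arrays were kept, and each gene was represented by its brightest probe set (by mean log2 value), which left 14433 genes. No further normalization was done, and RMA itself assumes like distributions of intensity, so a shift shared by most genes would not be seen. limma 3.58.1 (R 4.3.3) fitted the 6 group means over all 18 arrays (12 residual degrees of freedom), with contrasts between genotypes within a cell type, between stages within a genotype, and their interactions. P-values were adjusted by Benjamini-Hochberg within each comparison, and the pipeline was tested on simulated data. Precision is limited by 3 arrays per group. A gene under the bound (the 40th percentile of each array) on every array of a group is given as "at least N-fold" or by its intensities. Within a cell type, deviations of same-numbered -/- and +/+ arrays correlated at -0.14 to 0.07, so the numbers showed no pairing between the genotypes. Whether they pair arrays across cell types was not tested.

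All 10 genes were named in each comparison. From each list, the text names at most the 3 called genes with the largest change, and Fgfr1, Fgfr2, Fgfr3, Fgfr4, Fgf5, Spred1, Spred2, Il17rd, Dusp4 and Dusp5. Alternatives were another pseudocount, filter, choice of probe set, normalization, variance model and set of arrays, the replicate number as a block, and leaving out each array.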

Additional observations from a re-analysis of the deposited data

Results flagged for a closer look

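The genotype difference changed between cell types, by a test of the interaction itself, for 4 genes and for 1 probe set shared by Etv1 and Gm5454. Between progenitors and neurons the interaction was 0.74 for Fgf8, -0.73 for Fgf15 and -0.41 for Dusp6. At this step 5.67% of all genes were called upward and 5.41% downward. Most neuron values of Fgf8 were at background, and the Dusp6 interaction was called in 19 of 23 alternative settings. Between ES cells and neurons the interaction was -0.94 for Fgf15, -0.65 for Spry1 and -0.44 for Dusp6, against 4.7% of all genes upward and 11% downward. For the shared probe set 1450684_at the interaction was -0.50 between ES cells and progenitors and -0.51 between ES cells and neurons. Groups of 3 arrays are too small for a test of single arrays that stand apart.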

How the results depend on the processing

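Of 980 values of the 9 genes under other settings 960 kept their call, 8 lost and 12 gained one, and of 702 with an array left out 676 kept it, 17 lost and 9 gained one. No called value changed sign. The 2 genes called between genotypes in ES cells became 1 with array weights, every probe set tested, no filter, only the arrays compared or quantile normalization (1 to 2 with an array left out). In progenitors the 1 gene became 0 with a 60th percentile filter, where Fgf8 was not tested, 2 with array weights, the mean of the probe sets or a variance trend, and 3 with only the arrays compared. In neurons the 3 became 1 with only the arrays compared (1 to 5 with an array left out). The 0 interactions between ES cells and progenitors became 1 with array weights, only the arrays compared, a pseudocount of 16 or the replicate block (0 to 1 with an array left out), and the 3 between progenitors and neurons became at most 5. The replicate block changed no other count of these calls, and with it Fgf8 had an interaction of -0.46 (adjusted p 0.0420, limma). Whether replicate numbers pair arrays across cell types was not tested. The probe set with the highest mean intensity, an alternative chosen after seeing the data, gave Fgf4 a difference of -7.16 from ES cells to progenitors in +/+ cells in place of -2.60. Over all genes, only the arrays compared gave 151 higher and 83 lower in ES cells (1520 and 624 over all arrays) and array weights 765 and 361; in progenitors array weights gave 1961 and 2028 in place of 1127 and 1326. Signals near background limit Fgf8, and Spry4 in neurons. For most other settings the calls over all genes are not given here, and the causes of these changes were not tested.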
